A study of Mus musculus with 4 samples.

Results

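Genes of the major histocompatibility complex (MHC) and of the machinery that makes and loads its peptides were followed in a mouse Th1 clone that had been made anergic. The members were chosen by name alone: every probe set whose single symbol in the platform annotation begins with H2- or is B2m, Cd74, Ciita, Tap1, Tap2, Tapbp, Psmb8, Psmb9, Psmb10, Psme1 or Psme2. This gave 38 of the 8252 genes with such a symbol, measured by 52 of the 12488 probe sets on the array. The arrays fell into 2 groups of 2: cells of a Th1 T cell clone rendered anergic with antibody against CD3 bound to a plate (anergic 1 and 2), and quiescent cells of the normal Th1 clone (control 1 and 2). All 4 samples are from a cloned CD4 helper T cell line, so no other clone or animal is represented, and the labels name neither the mouse strain nor the antigen presenting cells the clone was grown with. Whether the arrays of a group are separate cultures is not stated in the labels. The p-values therefore reflect variation from array to array, some of which may be technical.

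MHC class I molecules, a heavy chain paired with beta-2 microglobulin, show peptides from the cell's own cytosol to CD8 T cells and are found on nearly all nucleated cells, T cells included. Their peptides are cut by the proteasome, carried into the endoplasmic reticulum by the transporter TAP and loaded with the help of tapasin. Class II molecules, an alpha and a beta chain, show peptides of ingested proteins to CD4 T cells and are made mainly by B cells, macrophages and dendritic cells. Mouse T cells, unlike activated human T cells, are known to make little class II themselves. Interferon gamma, the cytokine that Th1 cells secrete, raises both pathways in many cell types, acting on class II genes through the coactivator Ciita.

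Promoters of members are shown so that the elements found before class II and class I genes can be set side by side. Of the 38 genes, 25 had a window in the RefSeq table of the build GRCm38.p6, and 5 are printed as the 250 bases before the annotated start, 5′ to 3′ on the gene's strand. H2-Aa and H2-Eb1 stand for the class II chains, with the Y box (CTGATTGG) in capitals in both and the X box core (GNAACNGAT) also in capitals in H2-Eb1. H2-K1 and B2m stand for class I, with a kappa B motif (GGGANTCCC) and an interferon response core (AAANNGAAA) in capitals. Tap1 carries the Y box in reverse, also in capitals, and its window shares 225 bases with that of Psmb9, which is read the other way.
H2-Aa, chr17:34287824-34288073, minus strand: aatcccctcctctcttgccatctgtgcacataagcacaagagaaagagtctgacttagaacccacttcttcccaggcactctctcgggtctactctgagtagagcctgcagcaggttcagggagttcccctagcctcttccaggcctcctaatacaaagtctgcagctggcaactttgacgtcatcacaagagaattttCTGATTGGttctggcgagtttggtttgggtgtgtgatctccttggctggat
H2-Eb1, chr17:34305617-34305866, plus strand: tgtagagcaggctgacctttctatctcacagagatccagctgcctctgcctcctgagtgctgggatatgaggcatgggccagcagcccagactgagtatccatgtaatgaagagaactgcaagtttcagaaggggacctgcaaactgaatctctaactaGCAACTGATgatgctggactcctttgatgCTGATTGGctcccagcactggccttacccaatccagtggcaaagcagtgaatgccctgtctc
H2-K1, chr17:34000348-34000597, minus strand: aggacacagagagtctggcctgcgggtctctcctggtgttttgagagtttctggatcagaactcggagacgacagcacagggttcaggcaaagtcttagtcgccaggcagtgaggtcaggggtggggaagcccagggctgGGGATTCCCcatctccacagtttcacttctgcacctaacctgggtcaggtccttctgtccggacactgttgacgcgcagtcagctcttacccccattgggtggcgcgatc
B2m, chr2:122147437-122147686, plus strand: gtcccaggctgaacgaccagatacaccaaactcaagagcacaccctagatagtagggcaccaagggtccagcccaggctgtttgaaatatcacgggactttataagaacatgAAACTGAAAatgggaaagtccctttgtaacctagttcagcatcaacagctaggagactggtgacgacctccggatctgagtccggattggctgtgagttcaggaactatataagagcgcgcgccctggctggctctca
Tap1, chr17:34187306-34187555, plus strand: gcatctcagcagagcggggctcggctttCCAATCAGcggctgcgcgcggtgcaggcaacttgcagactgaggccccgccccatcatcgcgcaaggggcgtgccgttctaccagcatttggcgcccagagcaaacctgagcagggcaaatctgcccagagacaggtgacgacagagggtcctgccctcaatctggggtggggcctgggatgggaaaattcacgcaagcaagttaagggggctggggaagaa

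Motifs were searched on both strands in the 250 bases before each start. The Y box was found in 4 of the 8 class II genes with a window (H2-Aa, H2-Eb1, H2-Eb2 and H2-Oa), in 4 of 10 class I genes, in Psmb9 and, as the same site, in Tap1, against 3.83% of all 32851 windows. The X box core was found in H2-DMb1, H2-Eb1 and H2-Eb2 and in 1.75% of all windows. The kappa B motif was found in H2-K1 and H2-D1 alone among these genes and in 0.636% of all windows, and the interferon response core in B2m and H2-DMa and in 9.37%. The gamma-activated motif TTCNNNGAA, which overlaps none of the capitals, was found in H2-M3, H2-DMb2 and Psmb8 and in 7.02% of all windows. Such matches describe letters and were not tested for binding. Only exact matches to the letters were counted, so a gene without a match may still hold a variant of the element.

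The values are intensities on the deposited linear scale, and differences are anergic minus control on the scale of log2(intensity + 29.15). Each was tested with limma over the 7453 probe sets whose mean log2 value passed a filter equivalent to an intensity of about 92.4, with Benjamini-Hochberg adjustment and a threshold of 0.05. Control array 2 stood apart: its 9 spike-in probe sets had a geometric mean of 1972, while anergic arrays 1 and 2 and control array 1 lay between 870.4 and 1014. It was the highest of the 4 arrays in 36.5% of 12422 probe sets and in 49.8% of the 285 with a mean intensity above 5000. The label was checked against a list of 14 T cell genes. Of these, 12 were measured with 16 probe sets, 13 of them tested and 0 called. Both anergic arrays lay above both control arrays in 5 of the 16 (31.25%) and below them in 3 (18.75%). Over all probe sets these shares were 13.5% and 22.9%. At an unadjusted p under 0.05 in limma it was 4 of 13 (30.8%), against 11.3% of all tested probe sets. Cd5 was below the filter. Cd4 was at 4586 and 5106 on the anergic arrays, against 4084 and 3942 on the control arrays, and Cd3e at 8278 and 6808 on the anergic arrays, against 10102 and 5974 on the control arrays. Of the list for CD8 T cells and natural killer cells, Cd8a, Cd8b1 and Ncr1 did not exceed 45.4 on any array. Its other measured gene, Klrd1, which encodes the receptor chain CD94, had 5139 and 4723 on the anergic arrays, against 4304 and 5511 on the control arrays. Among all tested probe sets 68 were called higher and 32 lower in anergic cells, which is 0.912% and 0.429%. After centring each array on its median, which moved the median difference by 0.106, the split was 52 and 12.

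None of the member probe sets passed this test. Of the 52, 43 were tested and 0 were called by limma, against 1.34% of all tested probe sets, and the lowest adjusted p was 0.103, for the class II chain gene H2-Ea. At an unadjusted p under 0.05 it was 1 of 43, or 2.33%, against 11.3% of all tested probe sets. That 1 was H2-Ea, which passed the filter through the control arrays alone, so its difference is given as a description. The median difference of the tested members was -0.15, against -0.0855 over all tested probe sets. By sign 29 of 43 (67.4%) were lower in anergic cells, against 58.1% of all. Centring on the array median left 24 lower and 19 higher, and quantile normalization 22 and 21. Both anergic arrays lay below both control arrays in 9 of all 52 members (17.3%) and above them in 5 (9.62%), against 22.9% and 13.5% of all probe sets. The shares of members that were called, or whose groups did not overlap, are thus no larger than the background.

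**Figure D1:**
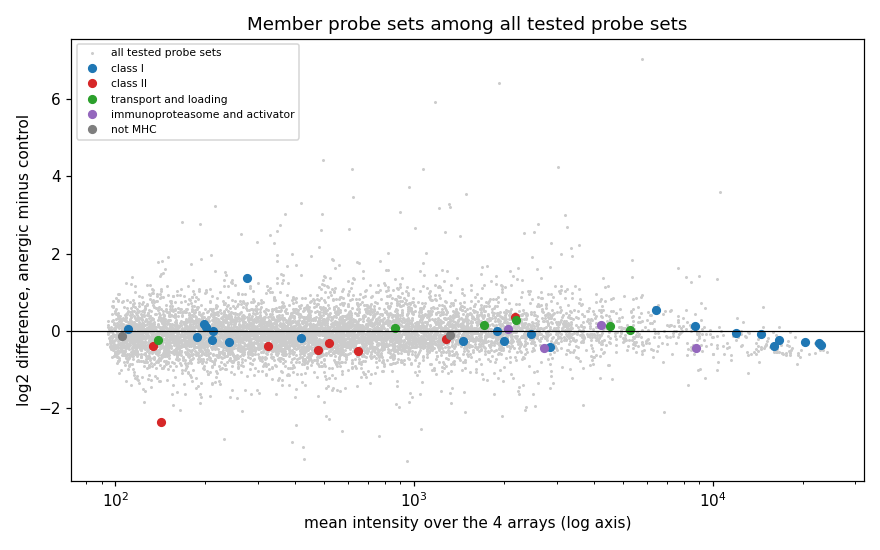
Log2 difference, anergic minus control (vertical axis), against the mean intensity over the 4 arrays (horizontal log axis) for all 7453 tested probe sets in grey and the 43 tested members in colour by role. Most members lie near 0, H2-Ea is the lowest at -2.35 and H2-T24 the highest at 1.37.

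**Figure D2:**
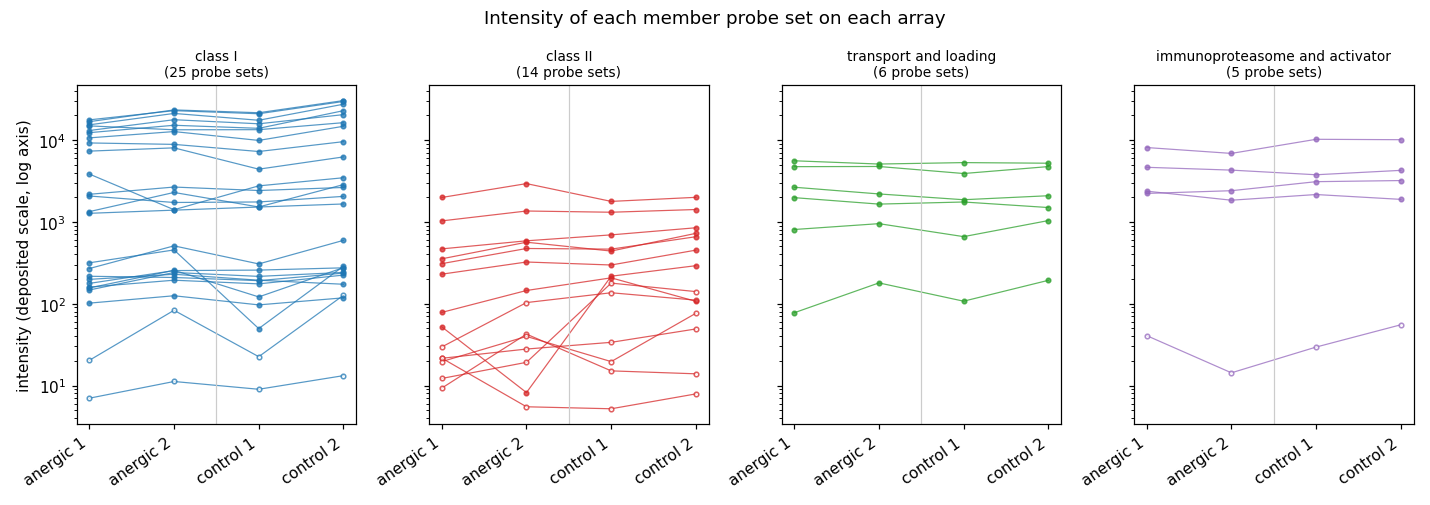
Intensity (log axis) of the 25 class I, 14 class II, 6 transport and loading and 5 immunoproteasome and activator probe sets on anergic arrays 1 and 2 and control arrays 1 and 2. Each line joins the values of 1 probe set, and open points mark those under the filter. Class I probe sets reach 30256 on control array 2, and several class II probe sets are below 100 on the anergic arrays. Those of H2-Ab1, H2-Eb2, H2-Ob and H2-Pa are below 100 on the control arrays too.

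The classical class I genes H2-K1, H2-D1 and B2m had values between 1405 and 30256 on the 4 arrays, while other class I genes ranged down to values below the filter. Of 25 class I probe sets, B2m among them, 23 were tested and 0 were called, and their lowest adjusted p was 0.447. H2-K1, which encodes a classical class I heavy chain, had 16720 and 23268 on the anergic arrays, against 21493 and 30256 on the control arrays, at its probe set 93120_f_at. The groups overlapped, because anergic array 2 was above control array 1. The difference was -0.37 ± 0.26 (SE, n = 2 each; adjusted p = 0.693 in limma), with a 95% interval from -0.97 to 0.23.

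H2-D1, the other classical heavy chain gene represented, had 17591 and 22785 on the anergic arrays, against 20888 and 29497 on the control arrays, at 101886_f_at. Its probe set 97541_f_at read 10599 and 12653 in anergic cells, against 9866 and 14683 in control cells. A further probe set, 97540_f_at, read 15299 and 21076 in anergic cells, against 17392 and 27310 in control cells. In all of these the groups overlapped, and control array 2 was the highest. B2m, the gene of the light chain that all these heavy chains need, had 12268 and 15108 on the anergic arrays, against 13863 and 22769 on the control arrays. Its difference was -0.38 ± 0.28 (SE; adjusted p = 0.706 in limma). Without control array 1, B2m was called lower in anergic cells (-0.74, adjusted p = 0.0434), and without control array 2 it was not (-0.0261). With quantile normalization both changed sign, to 0.0662 for H2-K1 and to 0.0064 for B2m.

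The spread within groups was of the same size as these differences. Over the 23 tested class I probe sets array 2 exceeded array 1 by a median of 0.29 in anergic cells and of 0.37 in control cells on the log2 scale, against 0.11 and 0.13 over all tested probe sets. Control array 2 was the highest of the 4 arrays in 18 of 25 class I probe sets (72%). The part of this array's brightness in the class I values was not tested. Probe sets of 1 gene also disagreed. At 97125_f_at H2-K1 read 9188 and 8826 in anergic cells, against 7223 and 9527 in control cells, and at 97700_at it read 3832 and 1405 in anergic cells, against 2748 and 3452 in control cells. Class I genes are near copies of each other, and 12 of the 25 class I probe sets carry the suffix that marks probes shared within a gene family, so a value cannot be given to 1 heavy chain gene with certainty.

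Both class I probe sets with the smallest p were higher in anergic cells but did not pass. H2-Q5, listed by RefSeq as a transcribed pseudogene of the Q region, had 7301 and 8003 on the anergic arrays, against 4395 and 6202 on the control arrays. The anergic arrays lay above both control arrays, with a difference of 0.55 ± 0.24 (SE; adjusted p = 0.447 in limma). H2-T24, a nonclassical class I gene of the T region, had 315.5 and 453.3 on the anergic arrays, against 49.6 and 286.5 on the control arrays. The groups did not overlap, but control array 1 was far below the other arrays, and the difference of 1.37 ± 0.61 (SE; adjusted p = 0.457) was 2.37 without control array 2, where it was called (adjusted p = 0.000988), and 0.37 without control array 1. Of the other nonclassical genes, H2-M3, which presents peptides that begin with formylmethionine, had 1270 and 1388 in anergic cells, against 1515 and 1651 in control cells, at 102731_g_at. At its other probe set, 102730_at, it had 216.1 and 208.8 in anergic cells, against 191.0 and 236.1 in control cells, so only the first separated the groups. H2-Q4 was at 14848 and 13308 on the anergic arrays, against 13345 and 16252 on the control arrays. H2-T18 had 2066 and 1722 in anergic cells, against 1747 and 2044 in control cells. For neither gene did the groups separate. H2-M10.1, H2-M2 and H2-M9, genes of the M region, lay between 120.9 and 593.2 on all arrays at their 5 probe sets. H2-M10.1 at 100305_g_at had 198.0 and 228.6 in anergic cells, against 193.4 and 172.6 in control cells, a small gap with no overlap, while its other probe sets overlapped. H2-Q10, whose product is a secreted class I chain of the liver, had 176.8 and 253.6 in anergic cells, against 257.0 and 274.0 in control cells. H2-Q1 had 101.5 and 124.9 in anergic cells, against 96.6 and 117.8 in control cells. H2-Q10 was thus lower on both anergic arrays, by less than the SE of its difference, and H2-Q1 overlapped. H2-K2, listed by RefSeq as a transcribed pseudogene, had 13037 and 17661 in anergic cells, against 15747 and 20370 in control cells. H2-Bl, listed likewise, had 1331 and 2284 in anergic cells, against 1517 and 2846 in control cells. In both the groups overlapped. H2-M1 and 1 of the 2 probe sets of H2-D4 were below the filter.

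**Figure D3:**
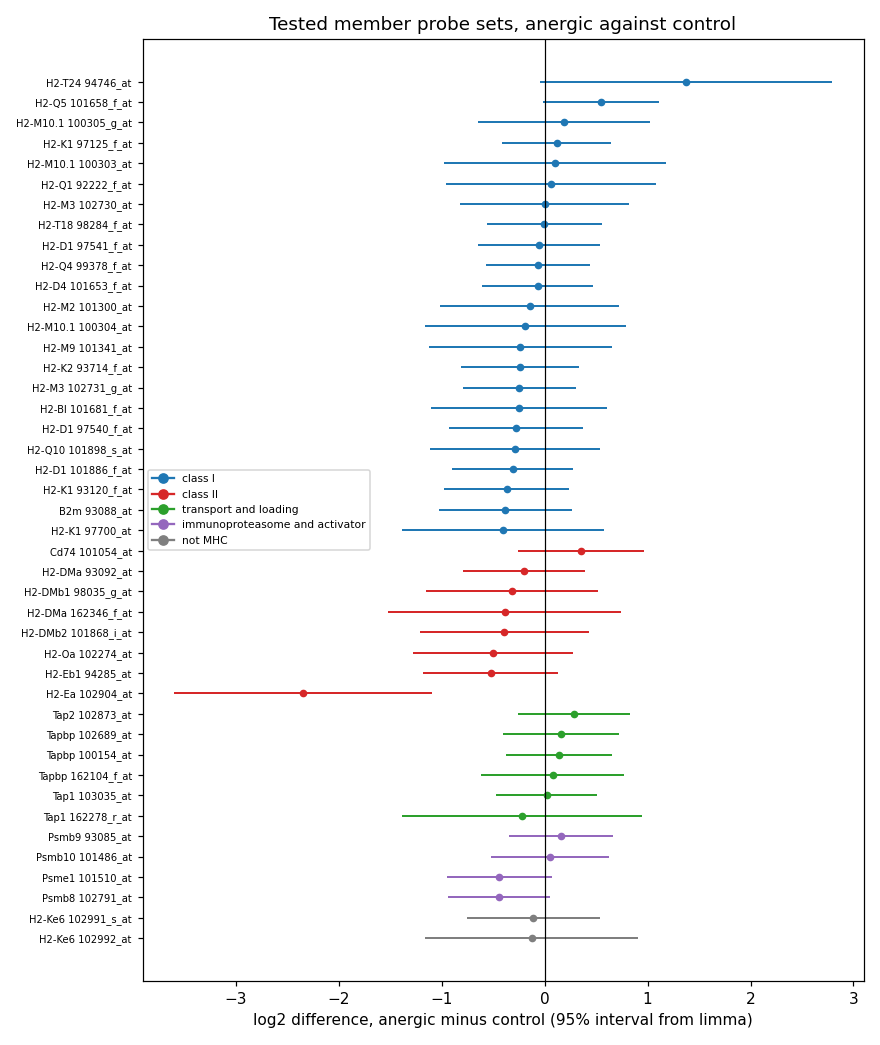
Log2 difference, anergic minus control, with its 95% interval from limma for the 43 tested member probe sets, grouped by role. The differences run from -2.35 for H2-Ea, which passed the filter through the control arrays alone, to 1.37 for H2-T24.

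The class II A and E chain genes, which ranged in level from below the filter to 845.5, had lower values on both anergic arrays at all 4 probe sets. H2-Ea, the alpha chain gene of the E molecule, had 52.1 and 8.2 on the anergic arrays, against 216.4 and 291.0 on the control arrays. H2-Aa, the alpha chain gene of the A molecule, had 12.2 and 19.2 on the anergic arrays, against 178.3 and 140.4 on the control arrays. Both genes thus had values above 100 in control cells alone. H2-Ea averaged 30.2 ± 31.0 in anergic cells and 253.7 ± 52.8 in control cells (SD, n = 2 each), a difference of -2.35 ± 0.54 (SE; adjusted p = 0.103 in limma), or of -1.12 with the pseudocount at the array median of 161.15. Its mean log2 value lay just above the filter, and both anergic values lay below the intensity that the filter stands for. H2-Aa averaged 15.7 ± 5.0 in anergic cells and 159.4 ± 26.8 in control cells (SD, n = 2 each) and was below the filter. Fitted with no filter its difference was -2.07 ± 0.43 (SE; adjusted p = 0.124 in limma). RefSeq lists H2-Ea as a transcribed pseudogene in the reference strain, and the labels do not name the haplotype of the clone.

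The beta chain genes differed less. H2-Ab1, the partner of H2-Aa, had 21.5 and 27.9 on the anergic arrays, against 33.7 and 49.1 on the control arrays, all below the filter. H2-Eb1, the partner of H2-Ea, had 466.9 and 585.7 on the anergic arrays, against 692.3 and 845.5 on the control arrays. Neither gene's groups overlapped, but the difference of H2-Eb1 was -0.52 ± 0.28 (SE; adjusted p = 0.561 in limma), with an interval from -1.17 to 0.12. H2-Eb2, a further beta chain gene, did not exceed 21.6 and the pseudogene H2-Pa did not exceed 76.3. Setting the A and E chains apart was done after their values had been seen, so the 4 of 4 has no test. Over all 14 class II probe sets, both anergic arrays lay below both control arrays in 5 (35.7%, against 22.9% of all probe sets) and above them in 0.

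Ciita, the coactivator gene, was the fifth of these. It had 29.6 and 103.1 on the anergic arrays, against 135.9 and 110.4 on the control arrays, so anergic array 2 was close to control array 2, and the probe set was below the filter. Cd74, the invariant chain gene, whose product guides class II molecules to endosomes, went the other way. It had 1983 and 2928 on the anergic arrays, against 1775 and 1990 on the control arrays, with a difference of 0.35 ± 0.26 (SE; adjusted p = 0.713 in limma) and overlapping groups.

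The genes of the peptide editors did not separate the groups. H2-DMa, which with a DMb chain exchanges peptides on class II, had 1026 and 1355 in anergic cells, against 1309 and 1413 in control cells, at 93092_at. H2-DMb1 had 353.0 and 563.1 in anergic cells, against 439.1 and 722.6 in control cells. H2-DMb2 had 229.2 and 322.7 in anergic cells, against 296.7 and 450.7 in control cells. In each of these 3 an anergic array lay between the control arrays. At 162346_f_at H2-DMa had 78.2 and 144.8 in anergic cells, against 206.8 and 106.7 in control cells, also with overlapping groups. H2-Oa, a chain of the molecule that restrains H2-DM, had 308.2 and 472.0 on the anergic arrays, against 463.6 and 657.4 on the control arrays (difference -0.50 ± 0.34, SE; adjusted p = 0.663). Its partner H2-Ob did not exceed 42.5. Of the 8 class II probe sets tested 7 (87.5%) were lower in anergic cells by sign, against 58.1% of all tested probe sets. The median was -0.39, and the count was also 7 after centring and after quantile normalization. H2-Ea is among the 7 and passed the filter through the control arrays alone, so its sign adds nothing to this count.

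Markers of cells that make class II were read on the same arrays. The 4 probe sets of the A and E chains summed to between 552.7 and 641.0 on the anergic arrays, against 1121 and 1326 on the control arrays. The B cell list, with 9 of 10 genes and 13 probe sets, summed to between 823.9 and 1244 in anergic cells, against 936.8 and 1474 in control cells. For macrophages and dendritic cells, with 12 of 12 genes and 19 probe sets, the sum was between 1885 and 2734 in anergic cells, against 1746 and 2332 in control cells. The sums are of raw intensities, so the brightest probe sets weigh most: H2-Eb1 among the chains, and Cd14 and Cd68 among the macrophage markers. Both marker sums overlapped between the groups. No marker was at 0, 8 of the 13 B cell and 10 of the 19 macrophage and dendritic cell probe sets stayed below 100 on all arrays, and the highest B cell value was 331.3, for Pax5. Individual markers moved both ways. Of the 19 macrophage and dendritic cell probe sets, both anergic arrays lay above both control arrays in 6 (31.6%) and below in 3 (15.8%). Of the 13 B cell probe sets they lay above in 0 and below in 3 (23.1%). Over all probe sets the shares were 13.5% above and 22.9% below. Lyz2, the lysozyme gene of macrophages, had 11.7 and 11.4 on the anergic arrays, against 129.1 and 73.3 on the control arrays, at 100611_at. Mpeg1, a macrophage perforin gene, had 93.8 and 155.8 on the anergic arrays, against 213.6 and 320.0 on the control arrays, at 99071_at (adjusted p = 0.441 in limma). Cd68, a lysosomal protein gene used as a macrophage marker, rose to 497.6 and 531.5 on the anergic arrays, against 71.0 and 91.3 on the control arrays (difference 2.31 ± 0.35, SE; adjusted p = 0.0216 in limma), a call lost without either anergic array (2.35 and 2.26) and with no filter (adjusted p = 0.0661). Its control values at this probe set, 103016_s_at, lay below the filter, which it passed through the anergic arrays. Other probe sets of these genes, all below the filter, did not go the same way. Mpeg1 at 162075_r_at had 14.3 and 15.9 in anergic cells, against 2.0 and 2.4 in control cells. Cd68 at 162173_i_at had 6.0 and 3.1 in anergic cells, against 11.1 and 6.5 in control cells. Lyz2 at 162309_at overlapped, with 7.0 and 5.1 in anergic cells, against 5.0 and 8.7 in control cells. The part of other cells in the class II values was not tested, and in such pooled RNA fewer cells with a transcript and less transcript per cell cannot be told apart.

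**Figure D4:**
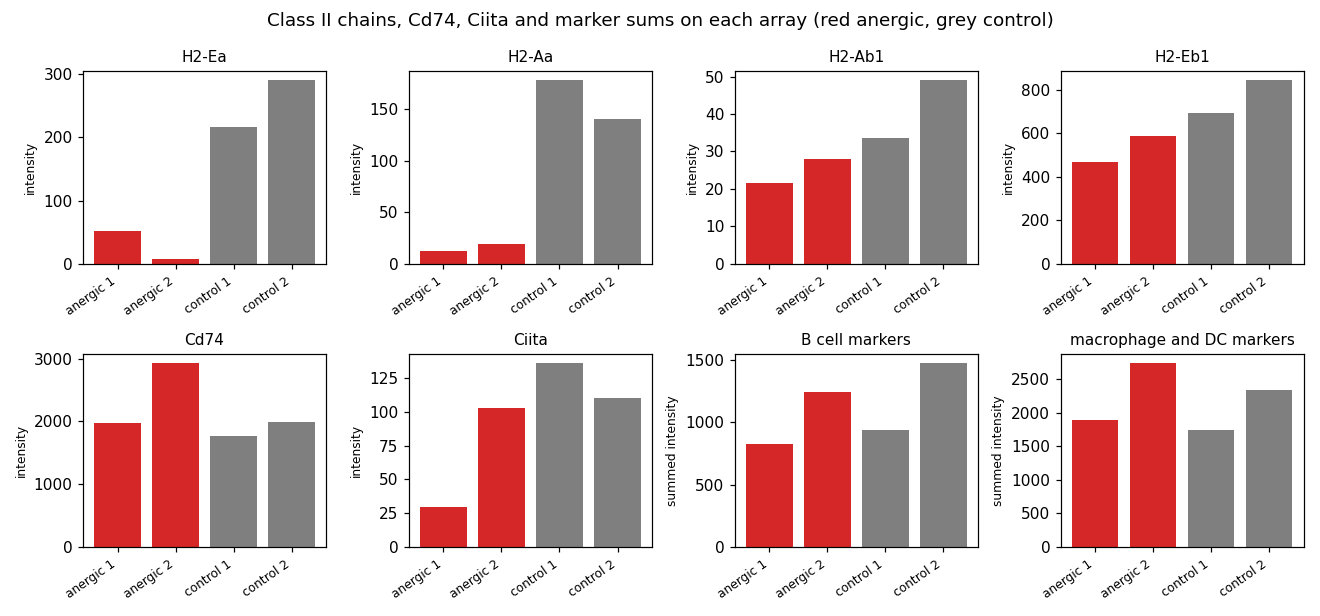
Intensity on each array of the class II chain genes H2-Ea, H2-Aa, H2-Ab1 and H2-Eb1, of Cd74 and of Ciita, and the summed intensity of the B cell and the macrophage and dendritic cell (DC) markers, with anergic arrays in red and control arrays in grey and every bar starting at 0. The 4 chains are lower on both anergic arrays. Cd74 and the marker sums overlap between the groups.

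Genes of peptide transport and loading showed small differences, none of which passed. Tap1, a chain of the peptide transporter, had 5564 and 5077 on the anergic arrays, against 5286 and 5196 on the control arrays, at 103035_at. At 162278_r_at Tap1 had 77.4 and 179.3 in anergic cells, against 107.2 and 192.8 in control cells. The difference there was -0.22, with overlapping groups. Tap2, its partner, had 2644 and 2189 on the anergic arrays, against 1861 and 2082 on the control arrays. Only Tap2 had both anergic arrays above both control arrays. Its difference was 0.29 ± 0.23 (SE; adjusted p = 0.748 in limma), with an interval from -0.25 to 0.82. Tapbp, the tapasin gene, had 4717 and 4738 in anergic cells, against 3889 and 4726 in control cells, at 100154_at, and 1973 and 1645 in anergic cells, against 1745 and 1494 in control cells, at 102689_at. Its differences were 0.14 ± 0.22 and 0.16 ± 0.24 (SE; adjusted p = 0.905 and 0.904), and the groups overlapped in both. Of these 6 probe sets 0 were called. The difference of 5 was above 0, or of 4 with quantile normalization. By sign 16.7% of the 6 were lower, against 58.1% of all tested probe sets. These 6 came from only 3 genes, and their median difference was 0.109. Among general chaperones that assist class I folding, Canx, Pdia3 and Hspa5 were tested with 4 probe sets and Calr was below the filter. None was called, and the adjusted p-values were between 0.907 and 0.956.

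The immunoproteasome subunits did not move together. Psmb8, a catalytic subunit that interferon induces, had 8074 and 6846 on the anergic arrays, against 10181 and 10067 on the control arrays. Both anergic arrays were lower, with a difference of -0.44 ± 0.21 (SE; adjusted p = 0.496 in limma) and an interval from -0.93 to 0.04. Psme1, a subunit of the proteasome activator PA28, had 2221 and 2398 on the anergic arrays, against 3091 and 3190 on the control arrays. It too separated the groups, with a difference of -0.44 ± 0.22 (SE; adjusted p = 0.521) and an interval from -0.94 to 0.06. Its second probe set did not exceed 55.2.

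Psmb9, the subunit encoded beside Tap1, had 4632 and 4279 on the anergic arrays, against 3755 and 4250 on the control arrays, a difference of 0.16 ± 0.22 (SE; adjusted p = 0.891 in limma). Psmb10, the third induced catalytic subunit, had 2368 and 1835 in anergic cells, against 2154 and 1880 in control cells. Psmb9 was thus slightly higher on both anergic arrays and Psmb10 overlapped. Both probe sets that hold Psme2, the other PA28 subunit, also name a second gene and are not members. The subunits that these replace in the constitutive proteasome, Psmb5, Psmb6 and Psmb7, and the related activators Psme3 and Psme4 gave 6 tested probe sets, 0 called, with a median of 0.0086. H2-Ke6, a hydroxysteroid dehydrogenase gene inside the complex with no known part in presentation, had 1547 and 1018 in anergic cells, against 1298 and 1422 in control cells, at 102991_s_at.

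Upstream genes of the pathway were read from lists of known regulators. Of 9 interferon gamma signalling genes measured, 8 probe sets were tested, 1 was called lower and 0 higher. Of all tested probe sets 0.429% were called lower and 0.912% higher. Irf9, the DNA-binding subunit of the interferon-stimulated factor ISGF3, fell to 779.6 and 615.7 on the anergic arrays, against 2069 and 1878 on the control arrays. The difference was -1.47 ± 0.25 (SE; adjusted p = 0.0379 in limma), and the call was lost without either anergic array (-1.63 and -1.31), after centring (-1.36, adjusted p = 0.263), with no intensity trend (adjusted p = 0.137) and with no filter (adjusted p = 0.0516). Irf1, a factor that activates class I, Tap1 and Psmb9 promoters and the Ciita gene, had 641.6 and 652.7 in anergic cells, against 1211 and 1197 in control cells (difference -0.87 ± 0.25, SE; adjusted p = 0.194). Ifngr1, a chain of the interferon gamma receptor, had 813.5 and 366.0 in anergic cells, against 2092 and 2065 in control cells (difference -1.87 ± 0.36, SE; adjusted p = 0.0565). Ifng itself had 3869 and 4864 in anergic cells, against 2132 and 2649 in control cells (difference 0.86 ± 0.24, SE; adjusted p = 0.184). For each of these 4 genes the groups did not overlap, although 3 did not pass. Irf1 was picked after its values were seen. Over all 10 probe sets of the list, both anergic arrays lay below both control arrays in 5 (50%) and above in 3 (30%). Over all probe sets these shares were 22.9% and 13.5%. Ifng was called without control array 2 (1.02, adjusted p = 0.015).

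Of the factors that bind class II promoters, Rfxank, Nfya, Nfyb and Nfyc were tested with 5 probe sets and Creb1 was below the filter. None was called, all 5 were lower in anergic cells by sign, against 58.1% of all tested probe sets, and the median was -0.43. In the list of class II proteases and helpers 1 of 8 tested probe sets was called higher, against 0.912% of all tested probe sets. By sign 7 of the 8 were higher and 12.5% lower in anergic cells, against 58.1% lower of all tested. These 8 came from only 5 genes. Over all 13 probe sets of the list, both anergic arrays lay above both control arrays in 5 (38.5%, against 13.5% of all probe sets). Ctsd, the gene of the aspartic protease cathepsin D, rose to 11382 and 12507 on the anergic arrays, against 4899 and 5007 on the control arrays (difference 1.26 ± 0.21, SE; adjusted p = 0.0297 in limma). That call was lost without either anergic array (1.33 and 1.196), after centring (1.37, adjusted p = 0.0701), with no intensity trend (adjusted p = 0.189) and with no filter (adjusted p = 0.0764). Ctsb, the gene of cathepsin B, had 488.2 and 255.5 in anergic cells, against 202.3 and 192.6 in control cells, at 92256_at (difference 0.76 ± 0.39, SE; adjusted p = 0.534). At its brightest probe set, 94831_at, the difference was 0.26, and at 95608_at it was 0.11 with overlapping groups. Its probe set 162271_f_at was below the filter. Ctss, the gene of cathepsin S, which trims the invariant chain in antigen presenting cells, had 799.8 and 354.1 in anergic cells, against 1511 and 647.6 in control cells (difference -0.86 ± 0.48, SE; adjusted p = 0.577), and it was called lower without control array 2 (-1.45, adjusted p = 0.00767). The class I-like genes Cd1d1 and Hfe were tested and Mr1 and Fcgrt were below the filter, with 0 called.

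**Figure D5:**
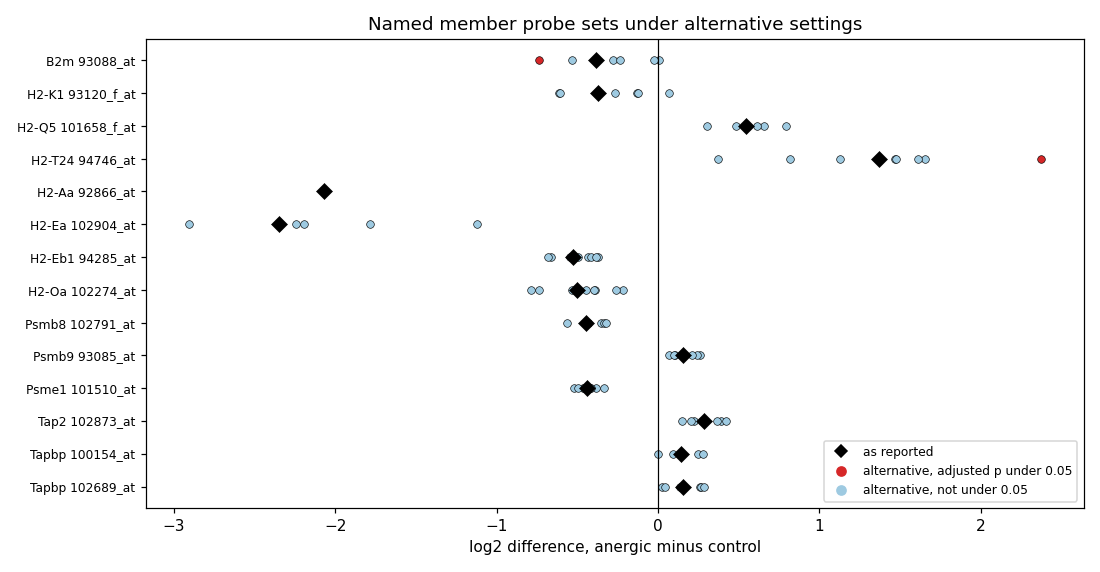
Log2 difference, anergic minus control, of 14 named member probe sets as reported (black diamonds) and under other pseudocounts, filters, normalizations and variance trends and with each array left out (circles, red where the adjusted p is under 0.05). H2-Aa is shown as fitted with no filter. Red circles appear for B2m without control array 1 and for H2-T24 without control array 2.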

How the data were processed

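The 4 arrays were grouped by their titles. The deposited file holds linear intensities, 1 for each of 12488 probe sets. The software with which the authors scanned, corrected and summarised the probes was not given in the sources used here. Scaling took place before deposit, since the mean after trimming 2% at each end was 500.3 on all arrays. Without the 66 control probe sets 12422 were left, and in the platform annotation 10833 of them had a single symbol, 396 several and 1193 none. Of the 396 with several symbols, 13 held a member's name and were left out.

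Intensities were taken as log2(value + 29.15), the pseudocount being the median over arrays of the 20th percentile. Probe sets with a mean log2 value above the 40th percentile were fitted with limma 3.58.1 in R 4.3.3 (lmFit, eBayes with intensity trend), two-sided, adjusted by Benjamini-Hochberg over all of them. Each fit had 2 residual and 6.17 prior degrees of freedom. An exact permutation test of 2 against 2 cannot go below p = 0.333. The script was tested on simulated data. The number of arrays limits precision. Every member may be named. Full statistics were given to members called under any setting and to the 3 with the smallest p in each role. Outside this rule H2-Aa was added after its values were seen, and Cd74 was added too. For other lists, genes were named when called or among the 3 with the smallest p, apart from those chosen after their values were seen (Irf1, Lyz2, Pax5 and the label checks). The members and lists were chosen with earlier results of these data known. Alternatives changed the pseudocount, filter, normalization, trend, replicate term or left out an array. Promoters are from RefSeq, GRCm38.p6, and the symbols of all 38 member genes were in its gene table.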

Additional observations from a re-analysis of the deposited data

How the results depend on the processing

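Member calls were absent under 9 of the 12 alternatives. The exceptions were B2m without control array 1, H2-T24 without control array 2, and H2-Ea and H2-T24 with the replicate number as a block, so the count ran from 0 to 1 with an array left out and was 2 with the block. Over all tested probe sets the count of 100 became 59 with no filter, 64 after centring, 38 with no intensity trend, 761 with the block, and 43 to 344 with an array left out. The fewer calls with no filter came with more probe sets tested, and the cause of the others was not tested. The median difference of the members, -0.15, became -0.0401 after centring, -0.0039 with quantile normalization, and -0.28 to 0.0157 with an array left out. In the block fit H2-Ea was at -2.35 (adjusted p = 0.00312) and H2-T24 at 1.37 (adjusted p = 0.0182), and Irf1, Ifngr1, Ifng and Ctss were called (adjusted p = 0.0139, 0.000314, 0.00958 and 0.0161). Without anergic array 1 or 2 H2-Ea was at -2.91 and -1.79 (adjusted p = 0.0785 and 0.283), and it was not tested without either control array, with a pseudocount of 1 or with the stricter filter, which it did not pass. With quantile normalization B2m was at 0.0064 and H2-K1 at 0.0662 (93120_f_at), the other way from the fit as reported. Of 501 member values under the alternatives, 50, from 26 probe sets, changed sign without a call. The titles number the arrays but do not say that a number is shared. Array 2 minus array 1 correlated at 0.537 between control and anergic arrays across probe sets, which are not independent, and with 2 pairs this does not establish a pairing. Ifngr1 was called with the pseudocount at the array median (-1.64, adjusted p = 0.048) and without 1 array in 3 of 4 cases. A low intensity was treated as measured, which limits what H2-Aa, H2-Ab1 and Ciita can show.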
